A study of Mus musculus with 12 samples.

Results

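Greb1l, Riok3, Stard4 and Dpysl3 are 4 genes of mouse chromosome 18 that were chosen because their RNA was higher in olfactory mucosa of mice with a large deletion on chromosome 7. They are 4 of 39395 listed genes and 4 of 424 tested genes of chromosome 18, and none belongs to the clustered protocadherins of that chromosome. All 4 passed the filter on low counts. They were selected on their normalized counts in the 2 genotypes, so the difference between genotypes is described here without a test.

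The mucosa lines the nose and carries the sensory neurons of smell, and its total RNA of 6 wildtype and 6 deletion males was sequenced at postnatal day 30 from 1 library per animal. Both genotypes were of the mixed strain 129S6;C57BL/6J. The deletion animals lacked 408217 bp of chromosome 7 (GRCm38, 102509797 to 102918014), which the labels call a class I odorant receptor enhancer deletion. No transgene or agent is named in either group, and its zygosity is unstated in the sources used here.

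Recovered reads per library ran from 10091239 to 18612011. Over the 30 listed genes of the deleted interval, wild-type animals summed to 10880 reads and deletion animals to 3. Mature olfactory neuron markers were abundant in both genotypes, with Omp, a protein of mature olfactory neurons, at 60163 ± 9286 normalized counts in the wild type and 56675 ± 7738 after deletion (SD, n = 6). Deletion replicate 3 stood apart from the rest, with at least 1 read on 94.6% of listed genes while wild-type libraries reached 65.2% to 69.3%, and deletion replicate 2 reached 80.6%. Deletion replicates 4 and 5, at 73.1% and 75.6%, also lay above the wild-type range. Deletion replicates 1 and 6, at 67.2% and 67.4%, lay within it. This share thus went partly with genotype. Results are therefore also given without deletion replicates 2 and 3, and with only deletion replicates 1 and 6 kept.

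The 4 genes act in different parts of the cell. Greb1l encodes a relative of the oestrogen-induced protein GREB1 and is known as a cofactor in retinoic acid receptor signalling, and in humans its loss causes kidney and inner ear malformations. Riok3 encodes an atypical protein kinase of the RIO family, whose members act in the maturation of the small ribosomal subunit, and in mouse erythroblasts RIOK3 takes part in the loss of the nucleus. Stard4 encodes a soluble sterol carrier with a START domain that moves cholesterol between membranes, and its gene is a target of SREBP-2, the transcription factor that responds to low sterol. Dpysl3 encodes CRMP4, a collapsin response mediator protein that binds the cytoskeleton in growing neurites, and in the olfactory epithelium it is known from immature neurons.

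The genes are spread along 33.1 Mb in GRCm38, measured from the start of Greb1l to the end of Dpysl3. Greb1l (ENSMUSG00000042942.17) spans 10325177 to 10562940 on the plus strand, with 33 exon blocks in the union of its 7 annotated transcripts. Riok3 (ENSMUSG00000024404.6) follows at 12128741 to 12157387 on the plus strand, 1.57 Mb further along. Stard4 (ENSMUSG00000024378.9) lies at 33199355 to 33213862 on the minus strand, 21.04 Mb beyond Riok3, and Dpysl3 (ENSMUSG00000024501.19) at 43320984 to 43438286 on the minus strand, 10.1 Mb beyond Stard4. All 4 are annotated as protein-coding. No annotated gene overlaps Riok3, Stard4 or Dpysl3, and those within Greb1l are a miRNA, a snoRNA and a processed pseudogene on the opposite strand.

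Per length, the 4 genes differed widely in level. In wild-type animals Dpysl3 had 69.0 ± 3.53 reads per kb of exon after scaling to library size (SD, n = 6), and 2.80% of tested genes were at or above this level. Riok3 had 11.6 ± 0.640, Stard4 4.80 ± 0.859 and Greb1l 0.637 ± 0.164 on the same per-kb scale (SD, n = 6). The range of each gene over the 6 wild-type animals did not overlap that of the next gene in this order. Greb1l was a weakly expressed gene of the tissue: 86.3% of tested genes were at or above its level, and the shallowest value rested on 81 reads. The reads behind single values were 1565 to 3370 for Riok3, 286 to 776 for Stard4 and 5806 to 10814 for Dpysl3.

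Greb1l had the largest difference of the 4. Its normalized count ran from 76.9 to 149 in wild-type animals, with a median of 103, and from 167 to 330 in deletion animals, with a median of 219. Every deletion animal lay above every wild-type animal, although wild-type replicate 5, the highest of its group, came close to deletion replicate 2, the lowest of the other. The means were 105 ± 23.9 and 233 ± 59.4 (SD, n = 6), a ratio of 2.21 and a log2 fold change of 1.13 ± 0.16 (SE). Single deletion animals were 1.59 to 3.14 times the wild-type mean. The mucosa is a mixture of cell types, so more cells of a type that expresses the gene and more RNA per cell cannot be told apart, here or for the other genes.

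Riok3 had the tightest wild-type values. Its normalized count ran from 1834 to 1986 in wild-type animals, with a median of 1913, and from 2150 to 2839 in deletion animals, with a median of 2339. The groups did not overlap, and deletion replicate 4 stood at the top, above replicate 6 at 2445. The means were 1918 ± 54.9 and 2398 ± 237 (SD, n = 6), a ratio of 1.25 and a log2 fold change of 0.32 ± 0.06 (SE). The coefficient of variation, the SD as a share of the mean, was 2.86% in wild-type and 9.88% in deletion animals.

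Stard4 was the 1 gene of the 4 whose groups overlapped. Its normalized count ran from 333 to 472 in wild-type animals, with a median of 411, and from 445 to 654 in deletion animals, with a median of 557. The overlap came from deletion replicate 2, which lay below wild-type replicates 5 and 6, while the other 5 deletion animals were above all wild-type animals. The means were 402 ± 58.1 and 564 ± 80.7 (SD, n = 6), a ratio of 1.40 and a log2 fold change of 0.49 ± 0.10 (SE).

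Dpysl3, the most abundant of the 4, had the smallest difference. Its normalized count ran from 6508 to 7165 in wild-type animals, with a median of 6958, and from 7295 to 8990 in deletion animals, with a median of 8291. The groups did not overlap, but deletion replicate 1, at 7295, was only 1.06 times the wild-type mean, and the highest, replicate 4, was 1.31 times. The means were 6863 ± 281 and 8278 ± 621 (SD, n = 6), a ratio of 1.21 and a log2 fold change of 0.27 ± 0.06 (SE).

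**Figure D1:**
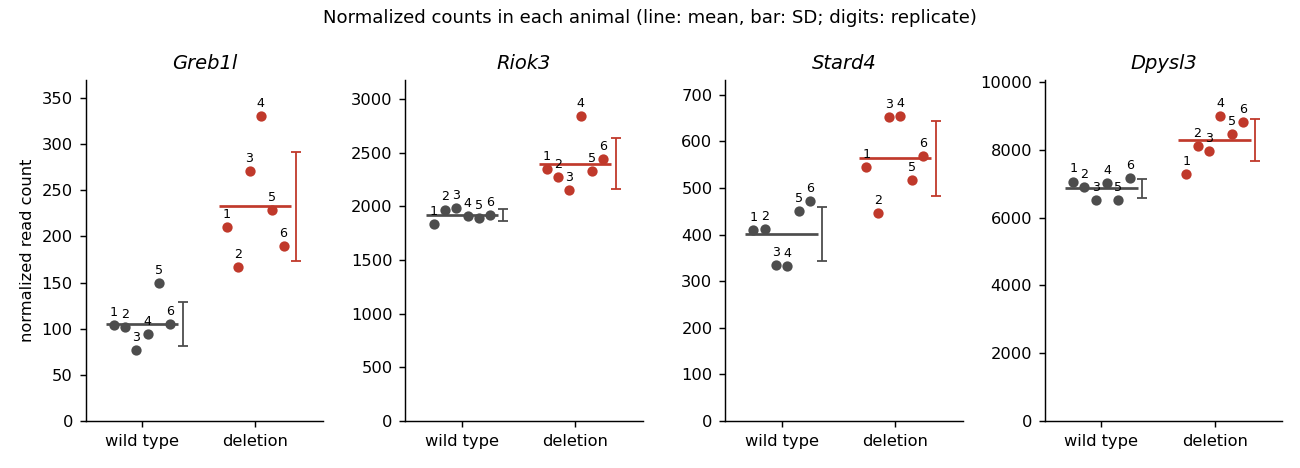
Normalized read count (y axis, from 0) of each gene in each animal of the 2 genotypes (x axis); digits are replicate numbers, lines are means and bars are SDs. The groups are apart for Greb1l, Riok3 and Dpysl3, and deletion replicate 2 falls within the wild-type range for Stard4.

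The groups did not overlap for 3 of the 4 genes, and 0.133% of all 17320 tested genes lay higher in every deletion animal. Over all tested genes the limma test placed 0.052% higher and 0.445% lower at an adjusted p under 0.05, while 4.39% had an unadjusted p under 0.05. Nothing is read from these shares for the 4 genes, since the same values chose them. With single animals left out in turn, the log2 fold change stayed between 1.02 and 1.24 for Greb1l, 0.27 and 0.35 for Riok3, 0.44 and 0.55 for Stard4, and 0.24 and 0.30 for Dpysl3.

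In the authors' deposited table, the log2 fold changes, which are wild type over deletion, are -0.47 for Greb1l, -0.31 for Stard4, -0.28 for Riok3 and -0.24 for Dpysl3. In the authors' deposited table the direction is thus the same once its sign is turned. In the authors' deposited table the sizes for Greb1l and Stard4 are less than the 1.13 and 0.49 computed here from the per-animal values, while those of Riok3 and Dpysl3 are near the values above. How those fold changes were scaled is unstated in the sources used here.

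By normalized count, the same animal led all 4 genes. Deletion replicate 4 had the highest value of the deletion group for Greb1l, Riok3, Stard4 and Dpysl3. For Stard4 the lead was narrow, at 653.8 against 652.4 in deletion replicate 3. On the per-kb scale, replicate 3 was the higher for Stard4 (8.43 against 8.01). Deletion replicate 4 was the highest deletion animal for 12.5% of all tested genes and for 14.9% of the 424 tested genes of chromosome 18. This library had a read on 73.1% of listed genes, above the wild-type range, while untested genes took 0.232% of its reads, within the wild-type range of 0.176% to 0.247%. The low end was not shared: deletion replicate 2 was lowest for Greb1l and Stard4, replicate 3 for Riok3 and replicate 1 for Dpysl3. Deletion replicate 3 was second highest for Greb1l and Stard4 but lowest of its group for Riok3. In wild-type animals no single animal led all 4 genes, with replicate 5 highest for Greb1l, replicate 3 for Riok3 and replicate 6 for Stard4 and Dpysl3. Wild-type replicate 6 was also 2nd highest for Greb1l and 3rd highest for Riok3. Its mean rank over the 4 genes was 1.75, against 1.0 for deletion replicate 4. Without deletion replicate 4 the log2 fold changes were 1.02 for Greb1l, 0.27 for Riok3, 0.44 for Stard4 and 0.24 for Dpysl3.

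**Figure D2:**
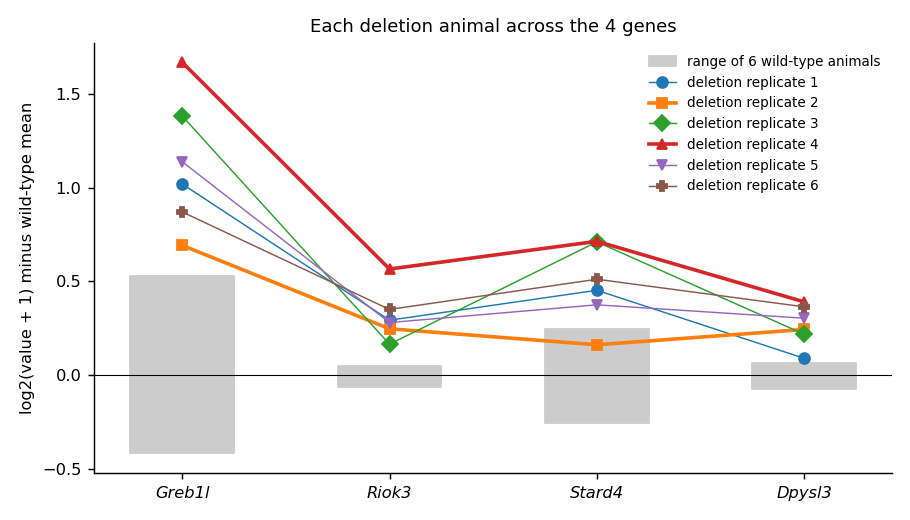
log2(value + 1) of each deletion animal minus the wild-type mean (y axis) for the 4 genes (x axis); lines join the values of 1 animal and grey boxes show the range of the 6 wild-type animals. Deletion replicate 4 is at the top for all 4 genes, only just above replicate 3 for Stard4, and replicate 2 lies within the grey box for Stard4.

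With all animals of a genotype, Greb1l and Stard4 had the highest r of the gene pairs, an order that changed without deletion replicate 3. The difference between genotypes chose the genes, but the order of animals inside a genotype did not, so it was tested over 18 relations (6 pairs of genes and 3 pairs of a gene with a marker or pathway score, in each genotype). In deletion animals Greb1l and Stard4 had Pearson r = 0.85 (n = 6, exact permutation p = 0.0333, adjusted 0.600) and Spearman rho = 0.77 (exact permutation p = 0.103, adjusted 0.617). In wild-type animals they had r = 0.73 (n = 6, exact permutation p = 0.0792, adjusted 0.713) and rho = 0.83 (exact permutation p = 0.0583, adjusted 0.525). Neither relation passed the adjustment. Without the 2 animals farthest from the Greb1l median, r was 0.60 in deletion animals, left without replicates 2 and 4, and 0.95 in wild-type animals, left without replicates 3 and 5. The other 5 pairs of genes had r from 0.25 to 0.61 in deletion animals and from -0.50 to 0.22 in wild-type animals, and none passed (exact permutation p 0.193 or higher, adjusted 0.725 or higher). Their rho ran from -0.60 to 0.66 (exact permutation p 0.175 or higher, adjusted 0.725 or higher). Deletion replicate 3 moved some of these values. Without it, r in deletion animals was 0.84 for Greb1l and Stard4 (n = 5, exact permutation p = 0.108, adjusted 0.488; rho = 0.60, exact permutation p = 0.35, adjusted 0.64). It went from 0.35 to 0.89 for Riok3 and Stard4 (n = 5, exact permutation p = 0.0250, adjusted 0.450) and from 0.50 to 0.88 for Greb1l and Riok3 (n = 5, exact permutation p = 0.10, adjusted 0.488). With all 6 but replicates 2 and 4, the latter r was -0.98, so its sign rests on those animals.

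Likeness over all 12 libraries, as Pearson r after each genotype's mean was taken off, set these pairs among the other tested genes. This is a description over 17319 other genes, which share libraries and depth. Stard4 was the 16th most alike gene to Greb1l (r = 0.79), and Greb1l the 68th most alike to Stard4. Riok3 and Dpysl3 had r = 0.46, which placed Dpysl3 at 1373 in the order for Riok3. The remaining pairs had r of 0.16 to 0.27 and places from 3440 to 6398.

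The genes most like each member by this measure came from other chromosomes, apart from Lox, and the 2 most alike on chromosome 18 are given beside them. For Greb1l they were Pop4, a subunit of ribonuclease P, with r = 0.92, Olfr640, an odorant receptor of chromosome 7, with 0.90, and Ankrd16 with 0.85. On chromosome 18, Lox, the enzyme that crosslinks collagen, had r = 0.77 with Greb1l and 0.93 with Stard4. Stard4 was further like Olfr922 (0.96) and Mnat1, an assembly factor of the CDK-activating kinase (0.94), and on chromosome 18 like RP23-461O23.2 (0.76). Riok3 was most like Cd274, which encodes PD-L1 (0.87), Zfp955b (0.86) and the metalloprotease gene Adam9 (0.85), and on chromosome 18 like Fam13b (0.79) and Pcdhb17 (0.79). Dpysl3 was most like the Hippo pathway gene Sav1 (0.89), Olfr103 (0.88) and the glycosyltransferase gene A4galt (0.87), and on chromosome 18 like the splicing factor gene Rbm22 (0.81) and the phosphatase gene Cdc25c (0.81). None of these genes passed the limma test between genotypes (limma adjusted p 0.295 or higher), leaving aside Stard4 and Greb1l. Those 2 were chosen on that difference. For Cd274, Zfp955b and Adam9, r with Riok3 was 0.13, 0.52 and 0.88 inside wild-type animals, and 0.93, 0.93 and 0.90 inside deletion animals. For Sav1, Olfr103 and A4galt, r with Dpysl3 was 0.47, 0.57 and 0.72, and 0.98, 0.95 and 0.95. The 3 genes most like Greb1l and the 3 most like Stard4 had r from 0.82 to 0.97 in each genotype. All these genes were picked for high r over the same animals. Their r inside a genotype is therefore a description and no separate evidence of a relation.

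Genes next to the 4 members were then compared between genotypes. Within 500 kb there were 25 tested genes besides protocadherins, and 0 of them passed in limma, against 0.497% of all tested genes in either direction. Without adjustment, 3 of the 25 were higher and 2 lower at p under 0.05, where 2.02% and 2.37% of all tested genes were. edgeR and DESeq2 also called 0. The 25 neighbours had log2 fold changes from -0.35 to 0.47, with a median of 0.03, against -0.01 over all tested genes.

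Around Greb1l, the nearest tested gene was Esco1, which encodes an acetyltransferase of cohesin and lies 3.57 kb beyond it. Esco1 had normalized counts of 1350 ± 189 in the wild type and 1441 ± 210 after deletion (SD, n = 6; log2 fold change 0.09, 95% interval -0.14 to 0.32). Rock1, a kinase gene and the nearest on the other side, had 3639 ± 456 and 3683 ± 418 (SD, n = 6; log2 fold change 0.02, 95% interval -0.17 to 0.21). Both intervals lie below the log2 fold change of Greb1l, but Greb1l was chosen for its rise, so this contrast is a description. For Rock1, no deletion animal was above all wild-type animals. Of the 11 neighbours of Greb1l, the highest log2 fold change was that of Thoc1, a gene of mRNA export picked for that value (0.19, limma adjusted p 0.955).

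The surroundings of Riok3 were more mixed. Tmem241, whose start site lies 7.20 kb from that of Riok3 on the opposite strand, had normalized counts of 137 ± 15.98 in the wild type and 117 ± 11.8 after deletion (SD, n = 6; log2 fold change -0.23, 95% interval -0.45 to -0.004). On the other side, AC102096.1 had 495 ± 43.9 and 557 ± 31.3 (SD, n = 6; log2 fold change 0.17, 95% interval 0.03 to 0.32). Neither passed (limma adjusted p 0.955 for both). Further out, Ankrd29 had a log2 fold change of 0.47 with 5 of 6 deletion animals above all wild-type animals (limma adjusted p 0.760), and Lama3, a laminin subunit gene, had -0.30 (limma adjusted p 0.907). Both were chosen after their values were seen.

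Near Stard4 and Dpysl3 few genes were tested. Camk4, a calmodulin-dependent kinase gene 8.13 kb from Stard4, had a log2 fold change of 0.20 (95% interval -0.03 to 0.44), and Nrep, on the other side, had 0.07 (95% interval -0.12 to 0.26). Stk32a, a kinase gene 2.30 kb from Dpysl3, had -0.03 (95% interval -0.18 to 0.12), and Jakmip2 had 0.02 (95% interval -0.13 to 0.17). None passed in limma (adjusted p 0.955 for each).

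**Figure D3:**
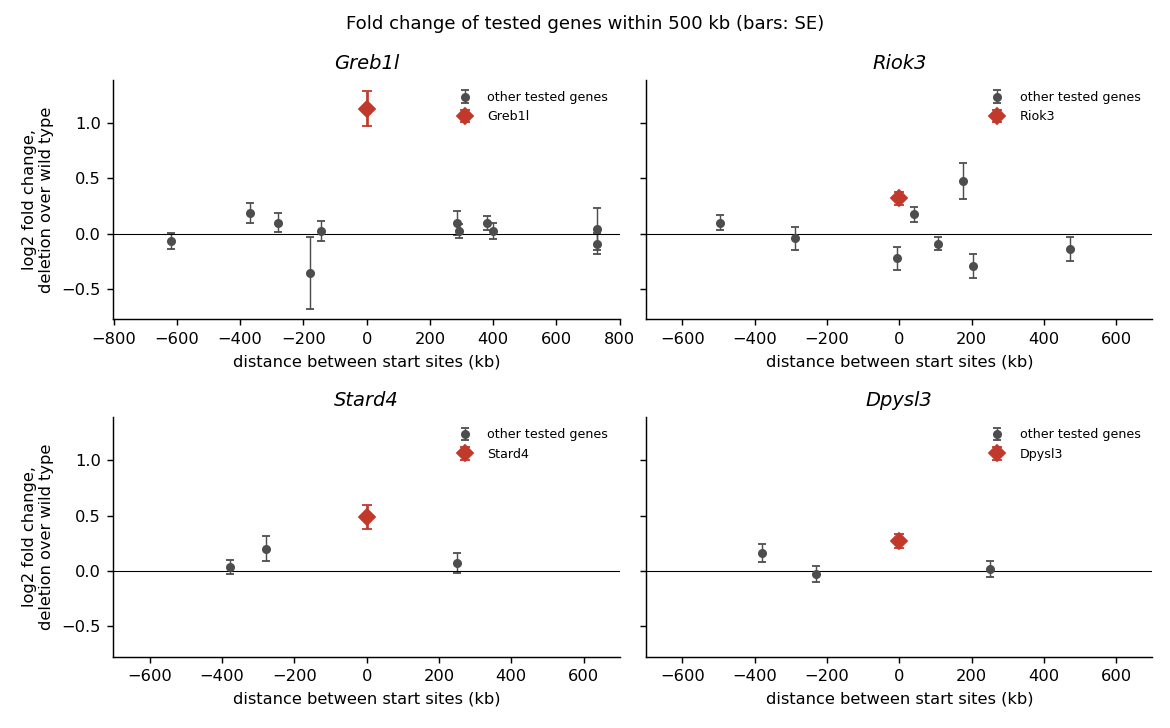
log2 fold change, deletion over wild type (y axis, bars are SE), of genes whose nearest end lies within 500 kb of each member, by distance between start sites in kb (x axis, which can exceed 500). The member (diamond, at distance 0) is the highest point in the panels of Greb1l, Stard4 and Dpysl3, and Ankrd29 lies above Riok3. The members were chosen for their rise, so their height beside the neighbours is a description.

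The stretches between the members held few other called genes. Between Greb1l and Riok3, 0 of 9 tested genes passed in limma, and between Riok3 and Stard4, 0 of 63. Unadjusted, 0 were higher and 1 lower at p under 0.05 in the first stretch, and 2 higher and 2 lower in the second. Between Stard4 and Dpysl3, 4 of 136 passed as higher, all of them clustered protocadherins, against 0.052% of all tested genes. Of the 85 other genes there 0 passed, with 2 higher and 4 lower at an unadjusted p under 0.05, where the shares over all tested genes are 2.02% and 2.37%. The median log2 fold change of the 424 tested genes of chromosome 18, members included, was 0.01.

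The paralogues of the members, chosen for their families and not for their values, did not pass the test. In the RIO family, Riok1 had a log2 fold change of -0.05 (95% interval -0.19 to 0.08) and Riok2 of 0.07 (95% interval -0.08 to 0.22). In the CRMP family, Dpysl2 had 0.04 (95% interval -0.10 to 0.18), Crmp1 had -0.03 (95% interval -0.21 to 0.14) and Dpysl5 had 0.01 (95% interval -0.13 to 0.16), while Dpysl4 was not analysed here. Stard5 had -0.02 (95% interval -0.20 to 0.16), and Stard6, itself on chromosome 18, had -0.31 (95% interval -0.86 to 0.24) with few reads. Greb1 was the least expressed, with 76 reads in all wild-type libraries together, and had 0.48 (95% interval -0.24 to 1.20). Its value in deletion replicate 3 was 60.4 normalized counts against 8.98 to 17.95 in the other deletion animals, and without that library its log2 fold change was 0.13.

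Per length, each member was the most abundant of its family in wild-type animals, but Dpysl3 and Dpysl2 were close. Dpysl3 had 69.0 ± 3.53 and Dpysl2 68.2 ± 6.07 on the per-kb scale (SD, n = 6), with overlapping ranges. The ratio of the per-kb levels of Dpysl3 and Dpysl2 inside each library was 0.925 to 1.11 in wild-type and 1.08 to 1.25 in deletion animals, with 5 of 6 deletion animals above all wild-type animals. The member in each of these ratios is the gene chosen for its rise, so they are a description. The ratio of Riok3 to Riok2 was 1.59 to 1.88 and 1.72 to 2.46, again with 5 of 6 deletion animals above the wild-type range. The ratio of Stard4 to Stard5 was 1.48 to 2.34 and 2.04 to 3.51, with 4 of 6 above. The ratio of Greb1l to Greb1 was 5.31 to 12.5 and 3.89 to 24.3, with 3 of 6 above and the lowest deletion value under the wild-type range.

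**Figure D4:**
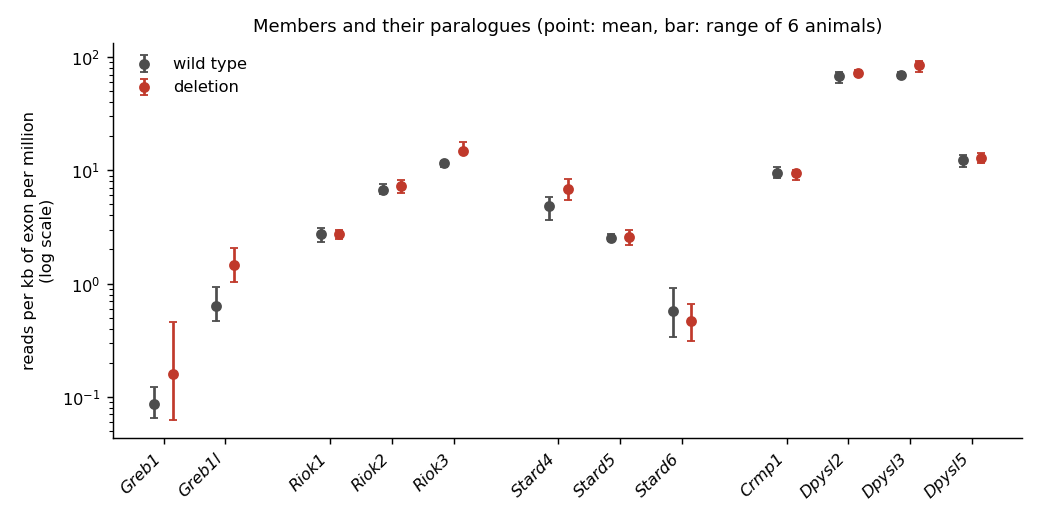
Library-scaled reads per kb of exon (y axis, log scale) for the members and their paralogues (x axis) in wild-type and deletion animals; points are means and bars the range over 6 animals. Dpysl3 and Dpysl2 overlap in wild-type animals, and the wide bar of Greb1 in deletion animals comes from replicate 3.

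Genes with roles near those of the members were read from 4 lists, which also hold the tested paralogues given above. None of the 4 lists held a gene that passed in limma, in edgeR or in DESeq2, and the background for limma in either direction is 0.497%. Of 20 tested genes of the retinoic acid pathway, 0 passed, also at an unadjusted p under 0.05, and the median log2 fold change was -0.07, with 3 of 20 positive. The smallest p-values were those of Aldh1a2 and Aldh1a3, which make retinoic acid (log2 fold changes of -0.13 and -0.14), and of the corepressor gene Nrip1 (0.12). Cyp26a1 and Cyp26c1 were listed but too low to test.

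Of 18 tested genes for RIO kinases and small ribosomal subunit maturation, 0 passed, and 0 had an unadjusted p under 0.05 (median -0.03, 6 of 18 positive). The smallest p-values belonged to ribosomal protein genes, Rps10 (log2 fold change -0.15), Rps20 (-0.11) and Rps14 (-0.14). Of 27 tested genes of the CRMP family and neurite growth, 0 passed, again also at an unadjusted p under 0.05 (median -0.02, 13 of 27 positive). Dclk1, a microtubule-binding kinase gene, had a log2 fold change of 0.14, the tubulin-binding gene Stmn1 0.10, and the semaphorin co-receptor gene Plxna4 -0.10.

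The sterol list gave the same count in limma. Of 36 tested genes for sterol synthesis, uptake and START-domain transport, 0 passed, while 0 were higher and 3 lower at an unadjusted p under 0.05, against 2.02% and 2.37% of all tested genes (median -0.01, 17 of 36 positive). The 3 lower ones were Abca1, the cholesterol efflux transporter (log2 fold change -0.17), and the synthesis enzyme genes Ebp (-0.15) and Tm7sf2 (-0.19), each at a limma adjusted p of 0.955. Npc1, which exports cholesterol from lysosomes and is also a neighbour of Riok3, had -0.09 (95% interval -0.22 to 0.03). Npc1 was singled out for its role after values were seen. The mean log2 level of this list had r = 0.41 with Stard4 in wild-type animals (n = 6, exact permutation p = 0.401, adjusted 0.725; rho = 0.49, exact permutation p = 0.356, adjusted 0.895) and -0.43 in deletion animals (n = 6, exact permutation p = 0.408, adjusted 0.725; rho = -0.09, exact permutation p = 0.919, adjusted 0.919). Without the 2 animals farthest from the Stard4 median, r was 0.83 and -0.90. Without deletion replicate 3, r in deletion animals was 0.03 (n = 5, exact permutation p = 0.98, adjusted 0.98).

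Erythroid and immature neuron markers were set beside Riok3 and Dpysl3, since red cell precursors and immature neurons are known to express these genes. The 6 tested erythroid genes summed to 37.9 to 133 CPM (TMM-scaled counts) in wild-type and 60.0 to 136 CPM in deletion animals, so the groups overlapped, and 0 of 6 passed in limma or at an unadjusted p under 0.05 (median log2 fold change 0.27, 6 of 6 positive). Epb42, a membrane protein gene of red cells, was too low to test, and Ahsp was not analysed here. Riok3 and the erythroid score had r = 0.63 in deletion animals (n = 6, exact permutation p = 0.157, adjusted 0.725; rho = 0.60, exact permutation p = 0.242, adjusted 0.725) and -0.23 in wild-type animals (n = 6, exact permutation p = 0.707, adjusted 0.779; rho = -0.37, exact permutation p = 0.497, adjusted 0.895). Without the 2 animals farthest from the Riok3 median, r was 0.52 and 0.25. The part of these cells in the Riok3 difference was not tested.

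The 10 immature neuron markers summed to 1828 to 2043 CPM in wild-type and 1670 to 2001 CPM in deletion animals, with 0 of 10 past the limma test or an unadjusted p under 0.05 (median log2 fold change -0.02). Most of the immature neuron markers are also in the list of the CRMP family and neurite growth, so the counts of these lists are not separate results. Precursor markers, of the dividing cells that give rise to the neurons, summed to 259 to 316 CPM in wild-type and 294 to 343 CPM in deletion animals. Of these markers, 0 of 8 passed the limma test (median log2 fold change 0.14, 7 of 8 positive). At an unadjusted p under 0.05, 1 of 8 was higher, where 2.02% of all tested genes were. It was Neurod1 (0.23, limma adjusted p 0.955). Dpysl3 and the immature neuron score had r = 0.55 in deletion animals (n = 6, exact permutation p = 0.247, adjusted 0.725; rho = 0.83, exact permutation p = 0.0583, adjusted 0.525) and 0.15 in wild-type animals (n = 6, exact permutation p = 0.775, adjusted 0.779; rho = -0.20, exact permutation p = 0.714, adjusted 0.918). Without the 2 animals farthest from the Dpysl3 median, r was 0.78 and -0.20. The part of cell composition in the Dpysl3 difference was not tested.

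The size of the differences varied little with the libraries and methods used. Without deletion libraries 2 and 3, those with reads on the most genes, the log2 fold changes were 1.18 for Greb1l, 0.37 for Riok3, 0.51 for Stard4 and 0.29 for Dpysl3, at least as large as with all 12 libraries. With only deletion replicates 1 and 6 kept, whose share of genes with a read lay within the wild-type range, they were 0.95, 0.32, 0.48 and 0.23.

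**Figure D5:**
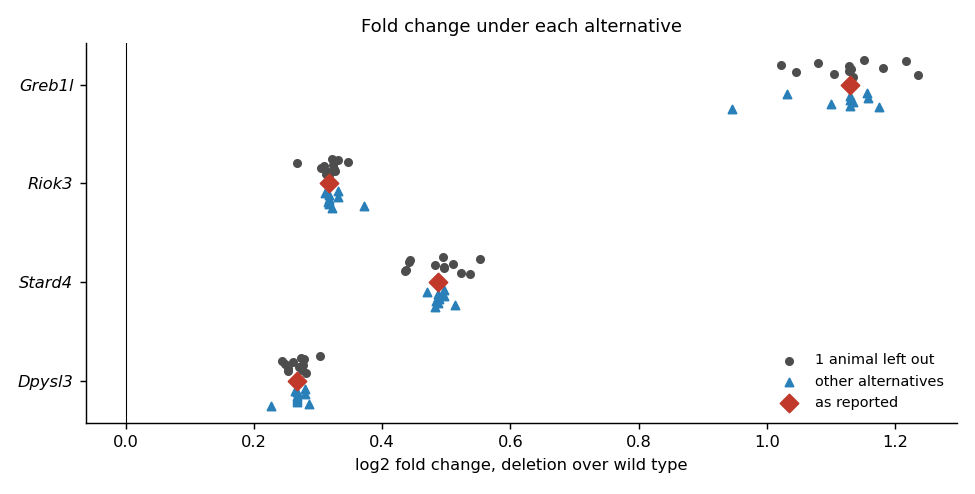
log2 fold change, deletion over wild type (x axis), of each gene (y axis) as reported (diamond), with 1 animal left out (circles) and under 10 other alternatives (triangles). All points lie above 0, and the spread is widest for Greb1l, from 0.95 to 1.24.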

How the data were processed

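The deposited values are a per-gene signal: the reads of a gene over the size factor of its library. All values (100%, tolerance 0.01 of a read) are whole multiples of the smallest value above 0 in their library, so whole reads were recovered. STAR 2.6.0, DESeq2 and GRCm38.p6 appear in the submitters' processing notes, with the read counter unstated there. Libraries were ribodepleted and stranded, per the labels' protocols. The authors' deposited log2 fold changes, p-values and scores were printed only where named. The 39395 genes with all values entered, and 1 with missing values did not. By the authors' own adjustment of p-values their test covered 42312 genes, and the rest were not analysed here.

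Positions came from GENCODE M21 (GRCm38). Differences were tested with limma 3.58.1 (R 4.3.3; trend, robust) on log2(value + 1), with group as the single term, after the filter of edgeR 4.0.16 (minimum count 10). Two-sided p-values were adjusted by Benjamini-Hochberg over 17320 genes, with a threshold of 0.05. A fold change on this scale understates the change of low genes. The recovered reads were also tested with edgeR and DESeq2 1.42.0 (the count tests). Relations within a genotype used exact permutation over 720 pairings, two-sided, with a smallest possible p of 0.00139, adjusted over 18. A score is the mean log2(value + 1) over a list's tested genes. CPM used TMM library sizes. Per-kb levels used the union of annotated exons and all recovered reads.

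The members and lists were chosen with earlier results of these data known. Named were the members, the nearest tested gene on each side, 3 genes of each list by smallest p, and the 3 genes (and 2 more of chromosome 18) most like each member; others are marked as chosen later, apart from Omp and listed genes too low to test, which were named as checks after values were seen. Some listed genes are not reported here. Animals with the same number in both genotypes did not deviate together (correlations of -0.243 to -0.007), so they were not paired. Intervals of fold changes come from limma.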

Additional observations from a re-analysis of the deposited data

Results flagged for a closer look

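In 72 sets of 6 values (the members, their nearest neighbours, their paralogues and the summed CPM of each list, in each genotype), 1 animal stood far from the rest in 2 sets, where chance gives about 3.6. Greb1, the paralogue of Greb1l, was at 60.4 normalized counts (44 reads) in deletion replicate 3, and its other deletion values ran from 8.98 to 17.95. That library had 0.915% of its reads on untested genes, where the other deletion libraries had 0.180% to 0.349%. The list of RIO kinases and small ribosomal subunit maturation summed to 2279 CPM in wild-type replicate 4 and to between 1701 and 1827 CPM in the other wild-type animals. None of the 4 members had such a value in either genotype.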

How the results depend on the processing

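The 4 log2 fold changes kept their direction and moved by less than the SD pooled over both genotypes under all 22 alternatives. Riok3 moved by more than its smaller wild-type SD without deletion replicate 4 (0.27) and without deletion replicates 2 and 3 (0.37). With 1 animal left out they ranged from 1.02 to 1.24 for Greb1l, 0.27 to 0.35 for Riok3, 0.44 to 0.55 for Stard4 and 0.24 to 0.30 for Dpysl3. A change of the filter on low values cannot move the 4 log2 fold changes. Nor can the replicate block, since both genotypes hold the same replicate numbers, so they were the same (1.13, 0.32, 0.49 and 0.27). With the block, 5 genes were higher and 72 lower over all genes, in place of 9 and 77. Animals share only a number across genotypes. Genes called in the 4 lists and near the members stayed at 0 under each alternative, also with windows of 250 and 1000 kb. Relations within a genotype were run under 3 alternatives, and 0 passed. Without deletion replicate 3, a single relation of the deletion animals could not pass, so that setting cannot decide it. There even rho = 1.00 for Riok3 and Stard4 had exact permutation p = 0.0167, adjusted 0.30 (n = 5). Over all genes, the count called higher was 15 with DESeq2, 16 with no filter on low values (88 lower; the median log2 fold change of all genes was then 0.13), 17 without deletion replicate 2 and 23 without deletion replicates 2 and 3. For Greb1l, the low read numbers limit the precision.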

Other observations

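Of 12 lists of cell type markers, none held a gene that passed the limma test. Besides the erythroid, immature neuron and precursor lists given above, mature olfactory neuron markers had a median log2 fold change of -0.04 (12 tested), sustentacular cells -0.04 (7), horizontal basal cells -0.14 (4), Bowman gland -0.17 (5), olfactory ensheathing glia -0.12 (5), immune cells -0.10 (7), neutrophil and marrow cells -0.30 (3), endothelial cells -0.07 (4), and bone and fibroblasts -0.14 (6). At an unadjusted p under 0.05, 1 gene was lower in each of the sustentacular and immune lists, where 2.37% of all tested genes were. They were Cyp1a2 (-0.21) and Cd74 (-0.25), a gene of antigen presentation that itself lies on chromosome 18. Bowman gland markers summed to 907 to 5815 CPM in deletion and 1204 to 1909 CPM in wild-type animals, with medians of 1553 and 1600 CPM. Of the 5 genes, 1 had a positive log2 fold change, Bpifb9b, named after values were seen. It also had the widest spread, at 21125 ± 27611 normalized counts in deletion and 5930 ± 3780 in wild-type animals (SD, n = 6).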
